A study of Homo sapiens with 3 samples.

Results

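The BEX and ARMCX genes, 2 gene families that lie close together on the X chromosome, were described in 3 lines of the human fibrosarcoma line HT1080, each measured on 1 expression array. The members were BEX1 to BEX5, ARMCX1, ARMCX2, ARMCX3 and ARMCX6, taken as every probe set whose platform annotation gave 1 of these symbols and no other gene. This gave 11 probe sets for all 9 genes, of 19775 genes with a probe set of their own. The families were chosen by the signals of BEX1 and ARMCX2 in the RECK line, which differed strongly in opposite directions, so those values are a description and support nothing further.

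The Zeo line was mock-transfected, and the RECK line was transfected with a vector for RECK, a membrane-anchored inhibitor of matrix metalloproteinases. The RECK/4NQ line received the same vector coding for RECK with glutamine in place of the 4 asparagines to which N-linked glycans attach. All 3 lines were permanent lines kept in 50 µg/mL Zeocin, the selection drug, with 10% FCS, and a clone or a pool is not stated in the labels for any of them. With 1 array per line there was no replicate error, SD or test, and any other difference between the lines cannot be told apart from the transfected gene.

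BEX stands for brain-expressed X-linked. The BEX genes encode small, largely disordered proteins known from neurons and neural progenitors, and several of them bind signalling proteins such as the neurotrophin receptor NGFR. The ARMCX genes encode proteins with armadillo-like repeats, several of which sit on the outer mitochondrial membrane and act in mitochondrial transport along axons with the RHOT (Miro) and TRAK proteins. Both families are found in placental mammals in a cluster that also holds the related TCEAL and GPRASP genes.

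The promoters of these genes shared a short sequence that the choice of members did not use. RefSeq promoter sequences of GRCh38.p14, from 250 bases before to 50 after an annotated start, matched 8 of the 9 members by symbol (12 promoters). The E-box CACGTG, the palindromic core read by basic helix-loop-helix factors, lay in a promoter of 7 of these 8 genes, against 8.77% of all 27305 genes with a promoter (7.26% of 35116 promoters). It was not particular to the members. Of 14 relatives with a promoter (TCEAL and GPRASP genes, ARMCX4, ARMCX5 and ARMC10), 9 held the E-box (64.3%). The 30 bases around it are given here, 5′ to 3′ on the gene's strand with the E-box in capitals, because they show how alike the cluster's genes are at this place. ARMCX4, a neighbouring relative that was no member, is added for its likeness to BEX1.
BEX1: acgcacggccctCACGTGaccgggagctgc
BEX3: acgcgcggccctCACGTGacccagagctgc
ARMCX4: acgcgcggtcctCACGTGacccggagctgc
BEX2: tgacaacagccaCACGTGatcggccaacac
BEX4: tgacaacagcccCACGTGaccggccaacac
ARMCX1: tgacgtggccctCACGTGagctggagccga
ARMCX2: cgatgcagccctCACGTGaccaggagctga
ARMCX6: tgacgtggccgtCACGTGaccaagagccgc

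BEX1, BEX3 and ARMCX4 had the E-box at the same place, its first base 47 bases before a start. In BEX2 and BEX4 it lay 19 bases before a start, and 3 bases before another annotated start of BEX4. It was 29 bases before the start in ARMCX1, 60 in ARMCX2 and 1 in ARMCX6. The last of these and the nearer BEX4 match run across the start. The windows lie at chrX:103064201-103064230 (minus strand) for BEX1, chrX:103376479-103376508 (plus) for BEX3, chrX:101485397-101485426 (plus) for ARMCX4 and chrX:103310992-103311021 (minus) for BEX2. Those of the others are chrX:103215077-103215106 (plus) for BEX4, chrX:101550506-101550535 (plus) for ARMCX1, chrX:101659893-101659922 (minus) for ARMCX2 and chrX:101617984-101618013 (minus) for ARMCX6. The longer form TCACGTGA, which contains the E-box, was chosen after the sequences were seen. It was held by 5 of the 8 members with a promoter, all but BEX2, BEX4 and BEX5. Its share was 1.18% over all genes and 57.1% over the 14 relatives. The genes of a family descend from common ancestors, so these matches are not independent of each other, and a match is not a measured binding site.

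**Figure D1:**
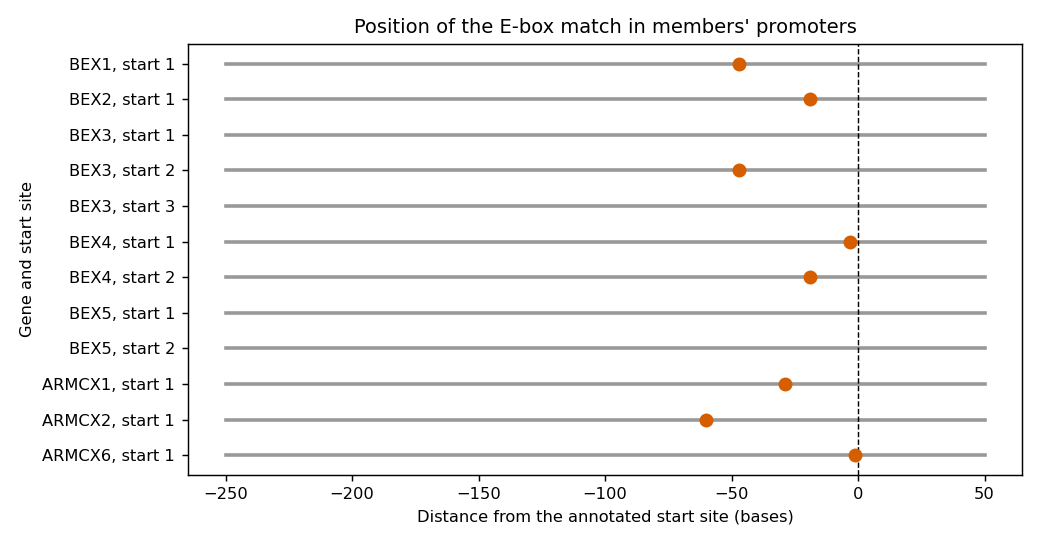
Position of the E-box match in the 12 promoters of the 8 members found in RefSeq, as the distance in bases of its first base (orange point) from the annotated start (dashed line); grey lines are the 300 bases searched. The matches lie between 60 bases and 1 base before a start, and both BEX5 starts and the other BEX3 starts have none in this window.

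Longer stretches were shared in pairs. The longest run of identical bases between promoters of members was 45 bases, in BEX2 and BEX4, followed by 35 in BEX1 and BEX3, 25 in ARMCX1 and ARMCX2 and 19 in ARMCX2 and ARMCX6, where the median over 28 pairs was 10. BEX1 and ARMCX4 shared 43. The 250 bases before the starts of BEX1 (chrX:103064172-103064421, minus strand) and ARMCX2 (chrX:101659851-101660100, minus strand) are shown because these genes differed most between the lines.
BEX1: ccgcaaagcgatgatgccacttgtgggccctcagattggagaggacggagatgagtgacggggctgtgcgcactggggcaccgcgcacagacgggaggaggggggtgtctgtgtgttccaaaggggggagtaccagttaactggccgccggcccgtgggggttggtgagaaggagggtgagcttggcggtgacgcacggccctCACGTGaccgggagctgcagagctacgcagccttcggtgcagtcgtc
ARMCX2: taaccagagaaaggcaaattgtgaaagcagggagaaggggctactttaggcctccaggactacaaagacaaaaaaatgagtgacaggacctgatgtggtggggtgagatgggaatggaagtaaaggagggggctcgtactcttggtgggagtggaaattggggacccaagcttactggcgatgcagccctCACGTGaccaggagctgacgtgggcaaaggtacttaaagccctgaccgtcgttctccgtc

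The stretch of BEX1 held 19 CG dinucleotides, the site of DNA methylation, and that of ARMCX2 held 7. Over the full 300 bases the members' promoters held 7 to 32 (median 15), against a median of 14 over all promoters. Of the other motifs searched, each on both strands, CCAAT was in a promoter of 6 of the 8 members (39.7% of all genes), GGGCGG in 4 (48.3%) and TATAAA in 0 (14.0%). DNA methylation and factor binding were not measured in these lines.

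The deposited values were MAS5 signals, a brightness per probe set on a linear scale, and levels are compared only within a probe set. Ratios were taken after raising low signals to a floor of 12.3, which is the 40th percentile over the 3 arrays. A gene, represented by its brightest probe set, was called higher or lower at 2-fold, and where 1 array lay under the floor the fold is a lower bound. Median signals were 17.3 to 20.3 per array. The median log2 ratio of genes measured on both arrays was -0.19 for RECK over Zeo. It was -0.11 when RECK/4NQ was set against Zeo, and -0.07 when RECK was set against RECK/4NQ, so a typical gene had a log2 ratio of about that size. Array scaling and real differences between the lines cannot be told apart in this shift. RECK itself, by its brightest probe set, had a signal of 264 in Zeo, 387 in RECK, and 442 in the RECK/4NQ line, and no source used here says whether its probes match the transfected cDNA.

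Of the 9 members, 7 reached the floor on every array. The others were BEX4 and ARMCX2, each below it in RECK only. In the RefSeq table the gene IDs of all 9 carry the same symbols. BEX1 and BEX2 each carry the other's symbol as an older name there. Probe sets were assigned by symbol, and the gene IDs were compared afterwards.

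**Figure D2:**
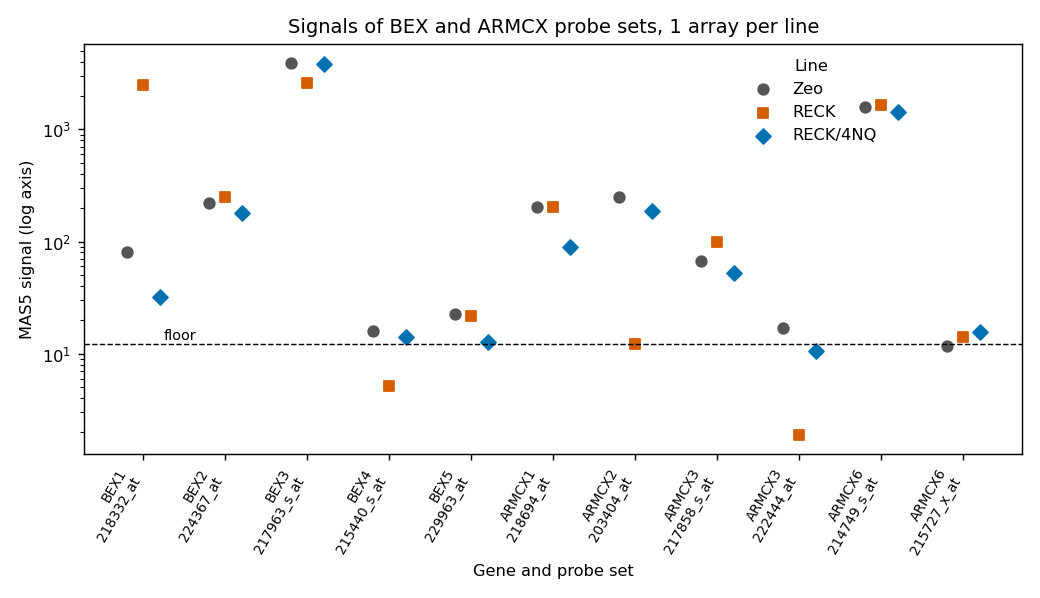
MAS5 signals (log axis) of the 11 BEX and ARMCX probe sets, with 1 point per line and the floor of 12.3 as a dashed line. BEX1 stands at 2469 in RECK against 80.6 and 32.0, ARMCX2 at 12.1 in RECK against 251 and 188, and ARMCX1 at 89.5 in RECK/4NQ against 203 and 205.

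BEX1, whose protein is a partner of NGFR and known for its part in neuronal differentiation, had a signal of 80.6 in Zeo, 2469 in RECK, and 32.0 in the RECK/4NQ line. The 3 lines were thus each apart from the others by more than 2-fold, with RECK high and RECK/4NQ low. BEX1 was 30.6-fold higher in RECK than in Zeo, 77.2-fold higher in RECK than in RECK/4NQ and 2.52-fold lower in RECK/4NQ than in Zeo. The first ratio is the one the choice used, and among 19775 genes BEX1 ranked 1 from the top in it and in RECK over RECK/4NQ, which has the same RECK array. It ranked 593 from the bottom for RECK/4NQ over Zeo. The signals are averages over a line's cells, so a change in the share of expressing cells and a change in RNA per cell cannot be told apart.

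BEX2, known as a regulator of apoptosis and NF-kB signalling in breast cancer cells, had 219 in Zeo, 247 in RECK, and 179.5 in the RECK/4NQ line. All 3 values lie within 1.38-fold. BEX3, which binds NGFR and takes part in its death signalling, had 3940.4 in Zeo, 2614 in RECK, and 3826 in the RECK/4NQ line. Its log2 ratio of -0.59 for RECK over Zeo was 1.51-fold and not called, and relative to the shift of all genes it was -0.40. The BEX1 and BEX3 promoters share the E-box position and the 35-base run, and their log2 ratios for RECK over Zeo were 4.94 and -0.59. ARMCX4, with the same E-box position and a 43-base run shared with BEX1, had a log2 ratio of 1.33 by its brightest probe set. What part these sequences have in the ratios was not tested.

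BEX4, reported to bind tubulin, had 16.1 in Zeo, 5.15 in RECK, and 14.1 in the RECK/4NQ line, all near or under the floor. It was not called in any comparison, and without a floor its log2 ratio for RECK over Zeo was -1.64. BEX5 had 22.7 in Zeo, 21.7 in RECK, and 12.6 in the RECK/4NQ line, and at 1.80-fold it was the member nearest to a call for RECK/4NQ over Zeo without reaching it.

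ARMCX2, also called ALEX2, had a signal of 251 in Zeo, 12.1 in RECK, and 188 in the RECK/4NQ line. It was low in RECK alone, where its signal lay just under the floor. The bounds were at least 20.5-fold lower in RECK than in Zeo and at least 15.3-fold lower than in RECK/4NQ, while Zeo and RECK/4NQ differed 1.34-fold. A floor at the 60th percentile gave a log2 ratio for RECK over Zeo of -3.18 instead of -4.36. ARMCX2 was measured by 1 probe set, as was BEX1, so no second probe set of these genes was there to compare.

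ARMCX1, or ALEX1, a mitochondrial outer membrane protein known from axon regeneration and from its loss in carcinomas, had 203 in Zeo, 205 in RECK, and 89.5 in the RECK/4NQ line. It was low in RECK/4NQ alone. It was 2.27-fold lower in RECK/4NQ than in Zeo (log2 ratio -1.19, and -1.07 relative to the shift of all genes) and 2.29-fold higher in RECK than in RECK/4NQ. These ratios lie -2.53 and 2.41 robust spreads from the median ratio of all genes measured on both arrays. A spread is taken over the 1000 genes nearest in level and holds real differences as well as noise. For BEX1 in RECK/4NQ over Zeo the value was -2.15 spreads.

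ARMCX3, or ALEX3, which links mitochondria to the RHOT and TRAK transport proteins, had 67.1 in Zeo, 99.7 in RECK, and 52.0 in the RECK/4NQ line by its brightest probe set. The order was RECK, Zeo, RECK/4NQ, with the ends 1.92-fold apart, just short of a call. A second, dim ARMCX3 probe set was at its lowest in RECK, at 17.0 in Zeo, 1.88 in RECK, and 10.7 in the RECK/4NQ line, and with it alone the log2 ratio for RECK over Zeo was -0.47 in place of 0.57. ARMCX6 had 1588 in Zeo, 1643 in RECK, and 1431 in the RECK/4NQ line, within 1.15-fold, and a second probe set near the floor read 11.7, 14.1 and 15.8.

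For RECK over Zeo, 1 of 9 members was higher, BEX1, and 1 lower, ARMCX2, while 4.03% of all 19775 genes were called higher and 6.7% lower; since the choice used this comparison, nothing is read from the count. The other 7 had log2 ratios from -0.59 to 0.57. For RECK/4NQ over Zeo 0 members were higher and 2 lower, BEX1 and ARMCX1, against 2.81% and 7.13% of all genes. For RECK over RECK/4NQ 2 were higher, BEX1 and ARMCX1, and 1 lower, ARMCX2, against 5.76% and 4.47%. BEX1 and ARMCX2 were chosen by their signals in RECK, so nothing is read from this count either. The comparisons share arrays in pairs, so their calls are not separate observations. Of all called genes 37.5% were higher for RECK over Zeo as deposited, 53.7% after quantile normalisation and 49.4% after median centring. For RECK/4NQ over Zeo these shares were 28.3%, 46.0% and 39.8%, while the members called were the same genes under all 3 scalings.

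The median log2 ratio of the 9 members was 0.01 with RECK set against Zeo, -0.37 with RECK/4NQ set against Zeo, and 0.46 with RECK set against RECK/4NQ. All measured genes were at -0.19, -0.11 and -0.07. By their brightest probe sets, all 9 had a lower signal in RECK/4NQ than in Zeo as deposited, as did 59.7% of the 12406 genes measured on all arrays. This was 8 of 9 after quantile normalisation, where BEX4 was above Zeo, against 51.3% of those genes. After median centring it was 8 of 9, where BEX3 was above Zeo, against 48.4%. BEX4 and ARMCX2, under the floor in RECK, are not among the genes measured on all arrays. As deposited, BEX3 differed only 1.03-fold and ARMCX6 only 1.11-fold between RECK/4NQ and Zeo. The second ARMCX6 probe set went the other way, at 11.7 in Zeo and 15.8 in RECK/4NQ. With probe sets averaged, the ARMCX6 log2 ratio was 0.11.

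**Figure D3:**
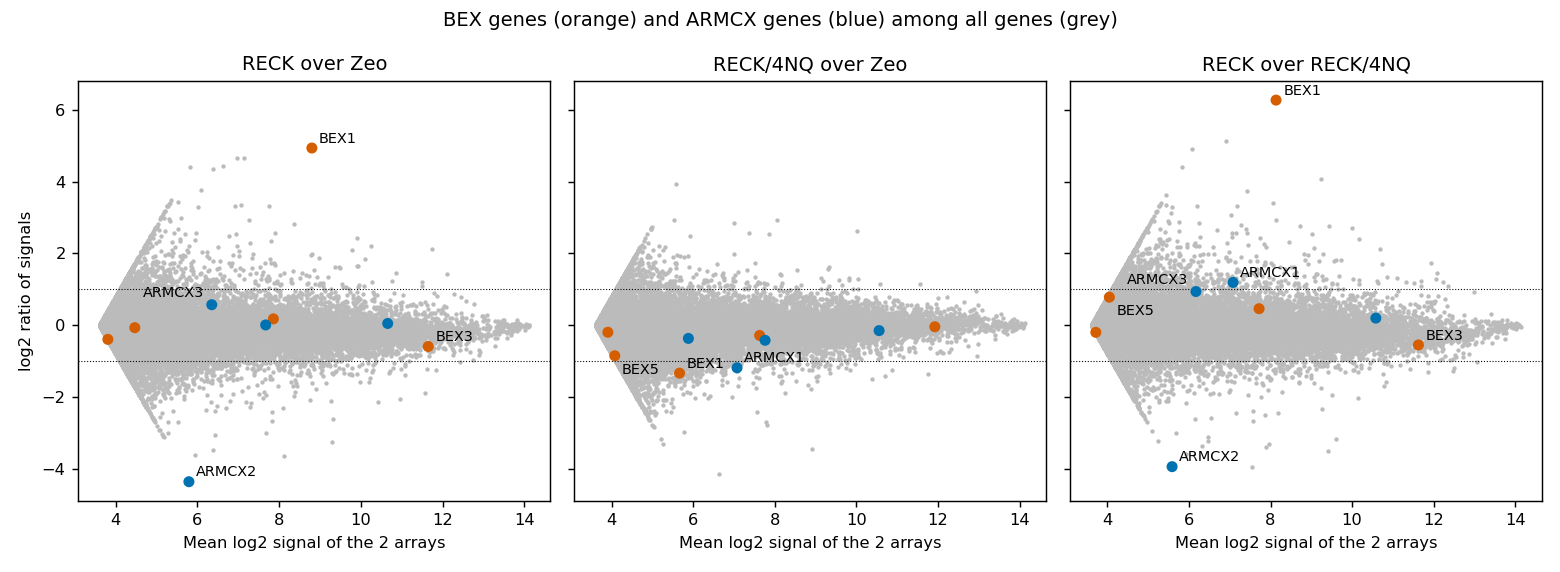
log2 ratio of floored signals against the mean log2 signal of the 2 arrays for all 19775 genes (grey), with BEX genes in orange and ARMCX genes in blue; dotted lines mark 2-fold. BEX1 lies at 4.94 and 6.27 in the panels with RECK and ARMCX2 at -4.36 and -3.94, while BEX1 and ARMCX1 lie at -1.33 and -1.19 for RECK/4NQ over Zeo.

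In RefSeq order the members run ARMCX1, ARMCX6, ARMCX3, ARMCX2, BEX5, BEX1, BEX4, BEX2 and BEX3 on the X chromosome. Between them lie 12 other genes with a probe set, of which 0 were higher and 1 lower for RECK over Zeo, and 1 higher and 2 lower for RECK/4NQ over Zeo. Only 3 of the 12 had a mean level above the floor, so an uncalled gene here is mostly one too dim to judge. Beside these counts, 4.03% and 6.7% of all genes were higher and lower in the first comparison and 2.81% and 7.13% in the second. The nearest such genes on either side of BEX1 were RAB40AL, a RAB40 family gene, which read 6.19, 3.18 and 27.7 in Zeo, RECK and RECK/4NQ, and NXF3, below the floor on every array. Both were thus unmeasured in Zeo and RECK, so whether BEX1 differed alone there cannot be read from them. The nearest gene with a probe set on 1 side of ARMCX2 was ARMCX3, whose brightest probe set read 99.7 in RECK against 67.1 in Zeo and was not called. Its second, dim probe set was lower in RECK, at 1.88 against 17.0 in Zeo, and was not called either. On the other side of ARMCX2 the nearest gene with a probe set, NXF5, was below the floor on every array.

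**Figure D4:**
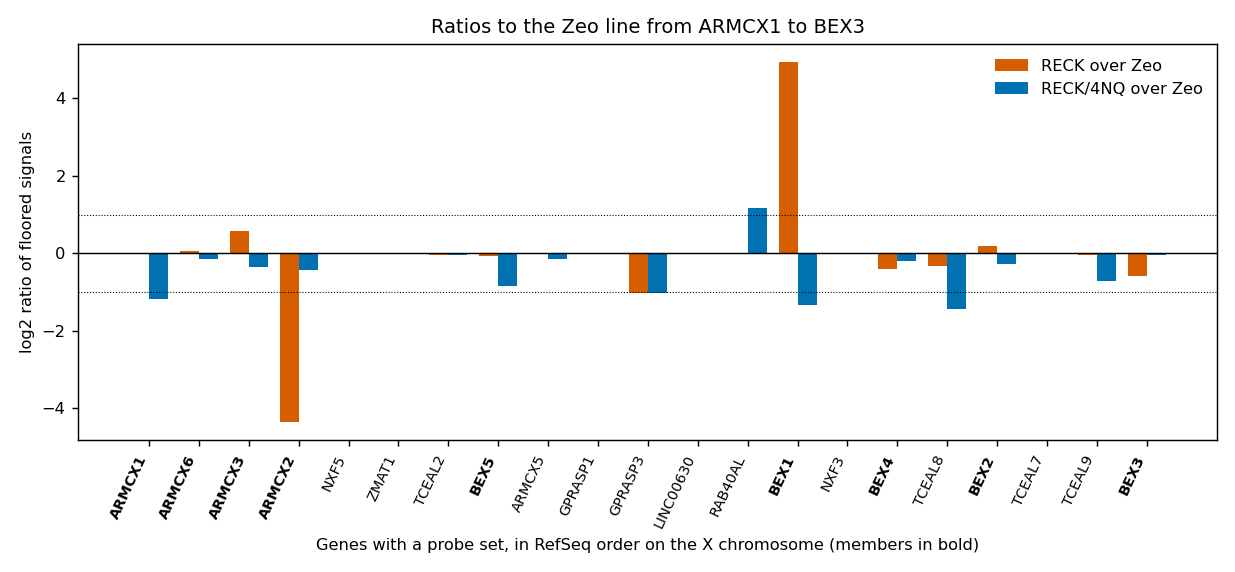
log2 ratios of floored signals to Zeo for the 21 genes with a probe set from ARMCX1 to BEX3, in RefSeq order and not to scale, with members in bold; genes under the floor on both arrays plot at 0 and dotted lines mark 2-fold. ARMCX2 at -4.36 and BEX1 at 4.94 stand apart in RECK, and ARMCX1, BEX1 and TCEAL8 are past 2-fold below Zeo in RECK/4NQ with GPRASP3 at its bound.

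Of the 15 relatives listed (TCEAL and GPRASP genes, ARMCX4, ARMCX5 and ARMC10), 12 had a probe set. For RECK over Zeo 1 was higher, ARMCX4, at 16.6 in Zeo, 41.8 in RECK, and 23.0 in the RECK/4NQ line, and 1 lower, GPRASP3, at 25.1, 3.97 and 7.43. For RECK/4NQ over Zeo 0 were higher and 2 lower, GPRASP3 and TCEAL8, a BEX-like gene with 81.9, 65.4 and 30.1. TCEAL8 had its low value in RECK/4NQ, as ARMCX1 did. The list's median log2 ratio over the 8 genes with a mean level above the floor was -0.12 for RECK over Zeo and -0.21 for RECK/4NQ over Zeo, where all such genes were at -0.19 and -0.12. Beside the counts of this list and of those below, 4.03% of all genes were higher and 6.7% lower for RECK over Zeo. The shares were 2.81% and 7.13% for RECK/4NQ over Zeo, and 5.76% and 4.47% for RECK over RECK/4NQ.

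Of 12 genes of neurotrophin receptor signalling with a probe set, 0 were called for RECK over Zeo. NGFR, the receptor that BEX1 and BEX3 bind, read 10.9 in Zeo, 15.5 in RECK, and 3.68 in the RECK/4NQ line, below the floor in Zeo and in RECK/4NQ. For RECK/4NQ over Zeo 1 was higher, NDN, a MAGE family protein that binds NGFR, at 219 in Zeo, 368 in RECK, and 637 in the RECK/4NQ line. BDNF, a neurotrophin, was 2.36-fold lower, at 110.5 against 46.8, and LINGO1, a co-receptor of the Nogo pathway, read 35.0 and 6.16, at least 2.86-fold lower. For RECK over RECK/4NQ 2 were higher, LINGO1 and the Nogo receptor gene RTN4R, which read 57.3 in Zeo, 75.7 in RECK, and 34.7 in the RECK/4NQ line. The list's medians were -0.24 for RECK over Zeo and -0.11 for RECK/4NQ over Zeo.

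Of 20 genes of mitochondrial transport and dynamics, 1 was lower for RECK over Zeo and 0 were higher. It was RHOT1, the GTPase that holds motors to mitochondria, at 26.9 in Zeo, 12.2 in RECK, and 21.5 in the RECK/4NQ line. Its RECK signal lay just under the floor, so its fold, at least 2.19, is a lower bound. RHOT2 had 526, 515 and 545, TRAK1 215, 158 and 221, and TRAK2 35.7, 42.7 and 30.6. The kinesin gene KIF5B was lower for RECK/4NQ over Zeo, at 41.0 against 89.9, and its relative KIF5C higher, at 41.9 against 20.8. The list's medians were -0.25 for RECK over Zeo and -0.23 for RECK/4NQ over Zeo.

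Among 22 neuronal genes, the markers of the tissue in which BEX1 is best known, 2 were higher for RECK over Zeo and 0 lower. These were the adhesion gene L1CAM and the neurofilament gene NEFL. L1CAM read 7.38 in Zeo, 35.7 in RECK, and 10.8 in the RECK/4NQ line, under the floor in all but RECK. NEFL read 68.0, 675 and 399.9. NEFL was thus high in both RECK and RECK/4NQ, where BEX1 was high in RECK alone. For RECK/4NQ over Zeo 1 was higher, NEFL, and 1 lower, the intermediate filament gene INA, at 42.2 in Zeo, 27.9 in RECK, and 10.8 in the RECK/4NQ line. Of the 22, 13 were at or above the floor in Zeo, 14 in RECK, and 13 in the RECK/4NQ line, and NEFM, NEFH, ELAVL3 and SCG3 were below the floor in all lines. The signals of the 22 summed to 12978, 9664 and 10611 in Zeo, RECK and RECK/4NQ, most of it from the tubulin gene TUBB3. The other 21 summed to 727, 1516 and 1255. NEFL and the enolase gene ENO2, which read 264, 467 and 488, made the largest parts of these sums. The list's median log2 ratio, over genes with a mean level above the floor, was -0.05 for RECK over Zeo. It was -0.15 for RECK/4NQ over Zeo. For RECK over RECK/4NQ 2 were higher, INA and L1CAM. Of 20 genes of DNA methylation and REST repression, 1 was lower for RECK over Zeo and 0 higher. It was REST, a repressor of neuronal genes, at 53.4 in Zeo, 24.6 in RECK, and 40.1 in the RECK/4NQ line, while the maintenance methyltransferase DNMT1 had 2061, 1863 and 2272 and DNMT3B, which sets new methylation, 372, 202 and 208. The medians of the DNA methylation and REST list were -0.34 for RECK over Zeo and -0.04 for RECK/4NQ over Zeo. All genes with a mean level above the floor were at -0.19 and -0.12. What part any of these genes has in the BEX1 or ARMCX2 values was not tested.

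Of 10 mesenchymal markers, which mark the lineage of a fibrosarcoma, 9 reached the floor in Zeo, 9 in RECK, and 6 in the RECK/4NQ line, where COL1A2, COL3A1 and PDGFRB were below it. The intermediate filament gene VIM was at 10307 to 10704 and the matrix gene FN1 at 2444 to 2707, while LUM was below the floor on every array. Among these markers PDGFRB, a growth factor receptor, was high in RECK, at 22.9 in Zeo, 67.3 in RECK, and 12.2 in the RECK/4NQ line. It was 2.94-fold higher for RECK over Zeo and at least 5.49-fold higher for RECK over RECK/4NQ. DCN, a matrix proteoglycan, was 2.01-fold lower for RECK over Zeo, at 30.2 against 60.5. COL1A2, a collagen chain, was at least 2.14-fold lower for RECK/4NQ over Zeo, from 26.2 to 2.31, and S100A4, a calcium-binding protein, was 2.02-fold higher for RECK over RECK/4NQ, at 117 against 57.6. The mesenchymal signals summed to 13235, 13853 and 13614 in Zeo, RECK and RECK/4NQ, and to 2928, 3149 and 3003 without VIM.

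Of 8 epithelial markers 3, 3 and 4 reached the floor in Zeo, RECK and RECK/4NQ, with EPCAM, KRT5, KRT19 and CLDN4 below it on all arrays, and none was called in a comparison. Their summed signal was 11253, 9084 and 9897, most of it from the keratin gene KRT18. The other 7 summed to 1358, 1713 and 1090, most of it from the keratin gene KRT8, at 1306, 1659 and 1039. Of the 6 endothelial genes 1, 3 and 1 reached the floor, with CDH5, KDR and TEK below it in all lines. EMCN, an endothelial sialomucin, was called higher in RECK, at least 2.02-fold against each of the other lines, at 3.15 in Zeo, 24.8 in RECK, and 1.10 in the RECK/4NQ line. The endothelial sum was 136, 119 and 104, and without PECAM1 27.5, 48.6 and 31.9. Of the 5 leukocyte genes with a probe set 4, 2 and 3 reached the floor, with CD14 below it in all lines. The integrin gene ITGAM was called lower in RECK, at 32.6 in Zeo, 12.1 in RECK, and 42.7 in the RECK/4NQ line, at least 2.66-fold against Zeo and at least 3.49-fold against RECK/4NQ. LCP1, an actin-bundling protein, was 2.30-fold higher for RECK over RECK/4NQ, at 357 against 155, with 217 in Zeo. The leukocyte sum was 318, 412 and 244, and without LCP1 101, 55.4 and 89.1. For RECK over Zeo, EMCN and ITGAM were the only called genes of the epithelial, endothelial and leukocyte lists. Each had 1 signal under the floor, and the part of these markers in the members' values was not tested.

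The genes whose pattern was most like that of BEX1, by the distance between log2 floored signals centred on each gene's mean over the 3 arrays, were SULF2 (0.84), HSD17B2 (1.36), SOX7 (1.88), SUGCT (1.97) and CDR2L (2.02) among 13608 genes. SULF2, a heparan sulfate sulfatase, read 28.4, 714 and 20.4 in Zeo, RECK and RECK/4NQ. The nearest to ARMCX2 were TMEM132D (0.53), NMRAL1 (0.55), MYH10 (0.63), MMP9 (0.78) and MTMR1 (0.93). MYH10, a nonmuscle myosin heavy chain, read 278, 24.8 and 253, and the gelatinase MMP9 1947, 203 and 2306. With 3 arrays such a likeness is a description and says nothing of shared control.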

How the data were processed

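Total RNA of 3 HT1080 lines was measured on 1 Affymetrix array each. The authors deposited MAS5 signal intensities on a linear scale, 1 per probe set and array, MAS5 being named in the submitters' processing notes. Neither the MAS5 version nor its scaling target is stated, and a build for the arrays is not given in the sources here. Of 54675 probe sets, 41091 had 1 symbol in the platform's annotation, which gave 19775 genes, each represented by the probe set with the highest mean log2 signal.

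Signals were used without further scaling, with a floor at the 40th percentile of all values (12.3). A call needed 2-fold with both signals at or above the floor, or 1 below it with a partner of 2 times the floor or more. No test, p-value or SD was possible with 1 array per line, and precision is limited by their number. Members and lists were chosen with earlier results of these data known. Named are all members, listed genes that were called or had the 2 to 4 largest ratios, called genes between members, and for BEX1 and ARMCX2 the 5 genes most alike; other genes (NGFR, RHOT2, TRAK1, TRAK2, DNMT1, DNMT3B, VIM, FN1, KRT18, PECAM1, TUBB3, NXF3, NXF5, TCEAL7, ARMC10 and those below the floor) were chosen after their values were seen. Alternatives covered scaling, floor, probe set choice and fold. Calculations used Python 3.11.15, numpy 2.4.6 and pandas 2.3.3.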

Additional observations from a re-analysis of the deposited data

Results flagged for a closer look

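BEX1 was past 2-fold above Zeo in the RECK line and past 2-fold below Zeo in the RECK/4NQ line, with log2 ratios of 4.94 and -1.33. Each line has 1 array and both ratios share the Zeo array, and the difference between them was not tested.

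A probe set of ARMCX4, which the gene-level comparisons did not use because another ARMCX4 probe set was brighter on average, read 74.9 in RECK, where Zeo read 0.875 and RECK/4NQ 0.850. The brightest ARMCX4 probe set read 16.6, 41.8 and 23.0 in Zeo, RECK and RECK/4NQ, and the other 3 were below the floor in RECK.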

How the results depend on the processing

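Without a floor, or with the floor at the 20th percentile, 2 members were lower for RECK over Zeo, and 2 with RECK set against RECK/4NQ, in place of 1 each, BEX4 joining ARMCX2. With calls at 1.5-fold, 2 members were lower for RECK over Zeo (BEX3 and ARMCX2), 3 lower for RECK/4NQ over Zeo (BEX5 joining) and 4 higher for RECK over RECK/4NQ (BEX1, BEX5, ARMCX1 and ARMCX3). With calls at 3-fold, 0 were lower for RECK/4NQ over Zeo, and 1, BEX1, was higher with RECK set against RECK/4NQ. These follow from the thresholds themselves. Quantile normalisation, median centring, averaging of probe sets and the floor at the 60th percentile left every count of members as it was; leaving out shared probe sets did too, but removed BEX3, BEX4 and ARMCX6. Of 180 member ratios recomputed, 11 moved by more than the local spread of ratios and 0 called ones changed sign. Counts over all genes ranged from 234 to 2045 higher and 329 to 3631 lower for RECK over Zeo, 119 to 1771 and 287 to 3510 for RECK/4NQ over Zeo, and 329 to 2839 and 192 to 2625 with RECK set against RECK/4NQ; after quantile normalisation 916 were lower for RECK/4NQ over Zeo, against 1410. No paired analysis was possible because each line has 1 array. Signals near the floor (BEX4, BEX5, ARMCX2 in RECK) give no firm ratio.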

Other observations

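TCEAL7, the relative whose place in the RefSeq order is between BEX2 and TCEAL9, was listed at 0.273 in Zeo, 7.97 in RECK, and 0.308 in the RECK/4NQ line, all below the floor, so no ratio is given. It was singled out after its values were seen. The autosomal relative ARMC10 read 249.6 in Zeo, 288 in RECK, and 318 in the RECK/4NQ line.

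Of the 14 relatives with a RefSeq promoter, 9 held the E-box in at least 1 promoter, among them TCEAL1 to TCEAL6 and TCEAL8, and 8 held the longer form.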
